A study of Mus musculus with 6 samples.

Results

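The genes described here are 9 transcription factors that specify or maintain epidermal identity, namely *Trp63*, *Klf4*, *Klf5*, *Ovol1*, *Zfp750*, *Tfap2a*, *Tfap2b*, *Tfap2c* and *Gata3*. The rule names them for that known role and uses no measured value, although they were chosen with earlier results of these data known. Each was found by its symbol and Ensembl identifier among the 55536 genes counted. All 9 were abundant enough to be tested, among 20622 tested genes. In these bulk libraries, none of the 9 was called different between knockout and control basal cells. *Tfap2b*, one of 3 AP-2 factors in the group, came nearest, at 1.55-fold higher in TKO (95% confidence interval 1.26 to 1.90, n = 3 against 3). The paper lists *Trp63*, *Klf4* and *Ovol1* among genes dysregulated in TKO clusters of its single-cell RNA data, which were not analysed here.

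Epidermal fate rests on p63, the product of *Trp63*, which is needed for a stratified epithelium to form and keeps basal cells in their proliferative state. AP-2 factors, encoded by the Tfap2 genes, bind epidermal promoters and enhancers alongside p63 and are partly redundant with each other. GATA3, OVOL1, ZNF750 (*Zfp750* in the mouse) and the Krüppel-like factors KLF4 and KLF5 take part in commitment, lipid synthesis and barrier formation as cells leave the basal layer. H3K9me3 is a histone mark of silent chromatin, laid down by the methyltransferases SUV39H1, SUV39H2 and SETDB1.

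RNA was sequenced from basal keratinocytes of dorsal skin, sorted as Epcam+ and integrin α6+ cells from mouse embryos at E16.5, in 3 Ctrl and 3 TKO libraries. Both groups were *Suv39h1* f/f, *Suv39h2*-/- and *Setdb1* f/f, and both received tamoxifen. TKO embryos carried K14CreERT2 and Ctrl embryos did not, so that Ctrl cells also lacked *Suv39h2* and the comparison is of *Suv39h1* and *Setdb1* deletion on that background. The K14 promoter drives the recombinase in basal keratinocytes, recombination was often incomplete, and the study's embryo list gives mosaic deletion for its bulk RNA-seq litters, without naming the library from each. Ctrl replicate 1 and TKO replicate 2 were labelled female and the other libraries male. The labels do not say which embryos or litters gave which library, so p-values here measure the spread between these samples.

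The Ctrl libraries held 102159175, 136515436 and 104422632 counts, in order of replicate, and the TKO libraries 116308383, 108957256 and 118413082. Levels are given as CPM, counts scaled to the library size after TMM normalization, at which 3 counts were worth 0.0232 to 0.0303 CPM. The libraries differed in makeup, since the 3 identifiers with the most counts held 13.2%, 11.5% and 8.86% of the counts in Ctrl and 11.6%, 10.1% and 5.65% in TKO. TKO replicate 3 therefore stood lowest on that measure.

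The sort and the deletion were checked first. *Epcam* was detected at 77, 87.7 and 72.9 CPM in Ctrl and 82.9, 97.4 and 79.1 CPM in TKO, and *Itga6*, which encodes integrin α6, at 462, 583 and 515 against 503, 562 and 530 CPM. *Setdb1* was at 126, 118 and 121 CPM in Ctrl and 95.3, 62.3 and 74.9 CPM in TKO. Its groups did not overlap, but its log2 fold change of -0.65 (SE 0.161) did not pass the test across all genes (edgeR quasi-likelihood test with Benjamini-Hochberg adjustment, adjusted p = 0.286, and 0.0449 by DESeq2). *Suv39h1* differed by a log2 fold change of -0.10, at 88.7, 78.5 and 84 against 75.6, 68.9 and 89.4 CPM. *Suv39h2* was at 15.9, 17.1 and 15.6 against 18.9, 16 and 17.5 CPM, with reads still counted in a gene both groups lack in functional form. These counts cover whole genes, so loss of the floxed exons alone is not seen in them. Exons of *Setdb1*, *Suv39h1* and *Suv39h2* overlap those of *Cers2*, *Gm14820* and *Dclre1c*, in that order, on the other strand.

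Among all tested genes, 27 were called higher in TKO, at an adjusted p under 0.05 with an absolute log2 fold change above 1, and none lower by edgeR. That is 0.131% of the tested genes, and 45 genes were called when a block for replicate number was added. At an unadjusted p under 0.05, edgeR put 837 genes higher (4.06%) and 416 lower (2.02%), 6.08% in all, beside 7.03% by DESeq2. At the adjusted p and fold change that define a call, DESeq2 called 214 genes (1.04%), 193 higher and 21 lower. Groups did not overlap for 11.5% of the tested genes, with 6.35% wholly higher and 5.11% wholly lower in TKO. Of the 9 factors, edgeR called 0, with 1 of 9, *Tfap2b*, higher and 0 lower at an unadjusted p under 0.05. DESeq2 also called 0 of 9, and again *Tfap2b* alone of the 9 had an unadjusted p under 0.05, beside that 7.03% of all genes. Fold changes were above 0 for 5 of the factors and below 0 for 4, and their median was 0.06 on the log2 scale, beside 0.01 for all tested genes. The summed level of the 9 genes was 2561, 2666 and 3024 CPM in Ctrl and 2593, 2504 and 3441 CPM in TKO, so the groups overlapped.

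**Figure D1:**
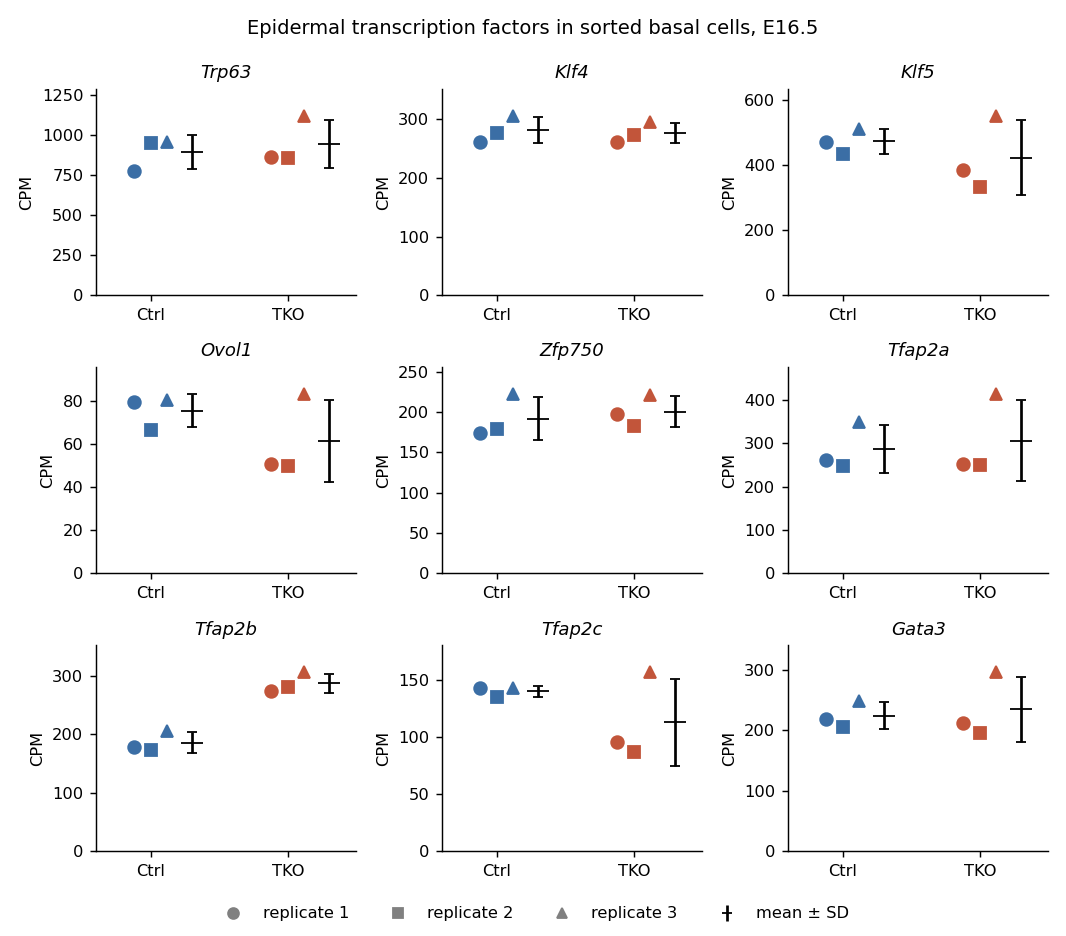
Level of each of the 9 transcription factors in CPM (vertical axes, starting at 0) in the 3 Ctrl and 3 TKO libraries. Symbols are libraries, shaped by replicate number, and black marks beside them are group means with SD. The TKO points of *Tfap2b* all lie above its Ctrl points, as for 6.35% of all tested genes, and TKO replicate 3 is the highest library for 7 of the 9 genes.

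Levels of different genes were compared per kilobase of annotated exon. Exons of *Ovol1*, *Zfp750*, *Tfap2a*, *Tfap2b* and *Gata3* overlap exons of genes on the other strand, by 73 to 696 bases a gene pair, and those of *Trp63*, *Klf4*, *Klf5* and *Tfap2c* do not. *Gata3* also shares 77 exon bases with *Gata3un*, a long noncoding RNA on the same strand. In Ctrl, *Trp63* was the highest of the 9, at 106 ± 12.4 CPM per kilobase (SD, n = 3). It was followed by *Klf5* at 90.1 ± 7.34, *Klf4* at 89.3 ± 7.08, *Tfap2a* at 58.5 ± 11.3, *Zfp750* at 51.9 ± 7.19 and *Gata3* at 49.3 ± 4.90 CPM per kilobase. *Tfap2c* at 36.0 ± 1.26, *Tfap2b* at 28.1 ± 2.73 and *Ovol1* at 21.6 ± 2.22 CPM per kilobase were the lowest. The ranges of *Trp63* and *Klf5*, of *Klf5* and *Klf4*, of *Tfap2a* and *Zfp750* and of *Zfp750* and *Gata3* overlapped, so those neighbours cannot be ordered. The ranges of *Klf4* and *Tfap2a*, *Gata3* and *Tfap2c*, *Tfap2c* and *Tfap2b*, and *Tfap2b* and *Ovol1* did not overlap. Among tested genes with an annotated exon length, every one of the 9 lay in the upper part per kilobase. They ran from the 93.2 percentile for *Ovol1* to the 98.8 percentile for *Trp63*. In TKO the order of means was the same but for 2 exchanges, of *Klf4* (88.0 ± 5.52) with *Klf5* (80.6 ± 21.9) and of *Tfap2b* (43.5 ± 2.49) with *Tfap2c* (29.1 ± 9.82 CPM per kilobase). In TKO the range of *Tfap2b* per kilobase lay wholly above that of *Tfap2c*, the reverse of Ctrl. That order in Ctrl rests on the exon lengths used, 6607 bases for *Tfap2b* and 3892 for *Tfap2c*. In CPM not divided by length, *Tfap2b* (178, 173 and 206) was above *Tfap2c* (143, 135 and 143) in Ctrl too.

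*Trp63* (ENSMUSG00000022510; GRCm39, chromosome 16, 25502513 to 25710852, plus strand) was measured at 772, 948 and 956 CPM in Ctrl and 861, 852 and 1117 CPM in TKO. The lowest value was a Ctrl library and the highest a TKO library, and the groups overlapped. The log2 fold change was 0.08 (SE 0.168, 95% confidence interval -0.29 to 0.46), so that a loss to less than 0.815 of the Ctrl level or a gain beyond 1.37-fold lies outside the interval (edgeR, adjusted p = 1). Read counts over the whole gene do not separate the TAp63 isoforms from ΔNp63, the form that predominates in basal keratinocytes. Its sign turned without TKO replicate 3 (-0.06) and without Ctrl replicate 1 (-0.01). Its 2 relatives in the p53 family, which share its DNA-binding domain, also had overlapping groups. *Trp53* was at 232, 211 and 226 against 201, 222 and 287 CPM (log2 fold change 0.09), and *Trp73* at 82.5, 67.6 and 77.5 against 61.3, 76.3 and 81.6 CPM (log2 fold change -0.05).

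*Klf4* (ENSMUSG00000003032; GRCm39, chromosome 4, 55527139 to 55532528, minus strand) encodes a factor of the suprabasal layers required for the skin barrier. Its level was 262, 277 and 306 CPM in Ctrl and 261, 274 and 296 CPM in TKO, nearly the same range in both groups. The log2 fold change was -0.02 (SE 0.133, interval -0.32 to 0.27), and it turned to 0.03 when libraries were scaled by total counts alone, to 0.04 without Ctrl replicate 3 and to 0.01 without TKO replicate 1. *Klf5* (ENSMUSG00000005148; GRCm39, chromosome 14, 99536086 to 99552473, plus strand), whose protein is more abundant in proliferating basal cells, was at 471, 435 and 512 CPM in Ctrl and 386, 331 and 551 CPM in TKO. TKO replicates 1 and 2 lay below every Ctrl library and TKO replicate 3 lay above every one. Its log2 fold change was -0.16 (SE 0.194, interval -0.60 to 0.27), and it ran from -0.40 without TKO replicate 3 (edgeR, adjusted p = 0.386) to -0.01 without TKO replicate 2.

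The rest of the KLF family gave a median log2 fold change of -0.01 over the 16 of 17 genes that were tested, *Klf4* and *Klf5* included. By edgeR and by DESeq2, 0 were called and 0 had an unadjusted p under 0.05. *Klf7* alone of the 16 had groups that did not overlap, beside 11.5% of all tested genes. Its level was 25.8, 32.1 and 31.5 CPM in Ctrl and 32.2, 36.5 and 40.4 CPM in TKO (log2 fold change 0.29, SE 0.155). It did not pass the test (edgeR, adjusted p = 0.935). Apart from the 2 epidermal factors, the family members with means above 100 CPM were *Klf13* (257 ± 45.5 against 223 ± 28.4 CPM), *Klf3* (225 ± 10.9 against 209 ± 26.2) and *Klf6* (123 ± 16.2 against 124 ± 40.6). *Klf2*, *Klf8*, *Klf9*, *Klf10*, *Klf11*, *Klf12*, *Klf15* and *Klf16* lay between 4.69 and 45.9 CPM with log2 fold changes from -0.18 to 0.30, and *Klf1* and *Klf14* were below 1 CPM in every library. *Klf17* was listed with 6 counts in 1 Ctrl library and 0 in the others, and was not tested.

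*Ovol1* (ENSMUSG00000024922; GRCm39, chromosome 19, 5599164 to 5610674, minus strand), a zinc finger repressor that promotes exit from the cell cycle, was the least abundant of the 9 genes. It was at 79.6, 66.6 and 80.3 CPM in Ctrl and 50.8, 49.9 and 83.2 CPM in TKO. As for *Klf5*, TKO replicates 1 and 2 were below all Ctrl libraries and TKO replicate 3 was above them. The log2 fold change was -0.30 (SE 0.203, interval -0.75 to 0.15), and it ran from -0.58 without TKO replicate 3 (edgeR, adjusted p = 0.125) to -0.17 without TKO replicate 2. Its paralog *Ovol2*, which restrains mesenchymal genes, was at 12.2, 12.5 and 10.8 CPM in Ctrl and 8.57, 10 and 9.84 CPM in TKO. Those groups did not overlap, and the log2 fold change of -0.32 (SE 0.175) did not pass the test (edgeR, adjusted p = 0.958). *Ovol3* had 30, 0 and 7 counts in Ctrl and 0 in each TKO library, too few to be tested.

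*Zfp750* (ENSMUSG00000039238; GRCm39, chromosome 11, 121401804 to 121410620, minus strand) encodes a p63 target that activates terminal differentiation genes. Its level was 174, 179 and 222 CPM in Ctrl and 197, 183 and 221 CPM in TKO. The TKO values fell within the Ctrl range, and the log2 fold change was 0.06 (SE 0.146, interval -0.27 to 0.39), or -0.02 without TKO replicate 3 and -0.01 without Ctrl replicate 1.

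The 3 AP-2 genes are close relatives, and a difference between their fold changes was not tested. *Tfap2b* (ENSMUSG00000025927; GRCm39, chromosome 1, 19279138 to 19309069, plus strand) was at 178, 173 and 206 CPM in Ctrl and 275, 281 and 306 CPM in TKO. The lowest TKO library was above the highest Ctrl library, and *Tfap2b* was the 1 factor of the 9 whose groups did not overlap, a share close to the 11.5% of all tested genes. Its log2 fold change was 0.63 (SE 0.134, interval 0.33 to 0.93), with an unadjusted p of 0.000888 that ranked 96 among all tested genes (edgeR, adjusted p = 0.185). It was above 0 in every alternative fit, from 0.58 to 0.71 on the log2 scale, with adjusted p from 0.00414 (DESeq2 on the same genes) to 1. With DESeq2, 1.26% of the genes had an adjusted p under 0.05 at any fold, *Tfap2b* among them, and its fold change stayed under the threshold of 1 for a call. Exons of *Tfap2b* share 433 of 6607 bases with *Gm71158*, a long noncoding RNA on the other strand, so reads of the 2 genes there could be mixed.

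*Tfap2a* (ENSMUSG00000021359; GRCm39, chromosome 13, 40868778 to 40891852, minus strand), the most abundant AP-2 gene of the 3, was at 262, 248 and 350 CPM in Ctrl and 253, 251 and 414 CPM in TKO. Replicate 3 was the highest library of both groups, and the log2 fold change was 0.09 (SE 0.222, interval -0.41 to 0.59), the widest interval of the 9. Leaving out 1 library turned its sign, from -0.19 without TKO replicate 3 to 0.26 without Ctrl replicate 3. *Tfap2c* (ENSMUSG00000028640; GRCm39, chromosome 2, 172391321 to 172400542, plus strand), the AP-2 gene best known from trophoblast and early surface ectoderm, was at 143, 135 and 143 CPM in Ctrl and 96, 87 and 157 CPM in TKO. The Ctrl libraries lay close together (coefficient of variation 3.49%) and the TKO libraries did not (33.7%). TKO replicates 1 and 2 were again below every Ctrl library and replicate 3 above. The log2 fold change was -0.31 (SE 0.207, interval -0.77 to 0.16), and it ran from -0.62 without TKO replicate 3 (edgeR, adjusted p = 0.0743) to -0.15 without TKO replicate 2. Of the other family members, *Tfap2e* was at 17.5, 17.4 and 18.3 CPM in Ctrl and 12.4, 10.5 and 21.6 CPM in TKO, with the same layout of libraries, and *Tfap2d* was too low to be tested.

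The balance between the 3 AP-2 transcripts does not depend on how libraries are scaled, and it was computed after the single levels had been seen. Per kilobase, *Tfap2b* made up 23.0%, 23.5% and 22.4% of the summed level of *Tfap2a*, *Tfap2b* and *Tfap2c* in Ctrl and 35.3%, 36.7% and 27.0% in TKO. *Tfap2c* made up 31.3%, 31.1% and 26.4% in Ctrl and 20.9%, 19.3% and 23.6% in TKO. The TKO range thus lay above the Ctrl range for *Tfap2b* and below it for *Tfap2c*, while the share of *Tfap2a* overlapped between groups (45.7%, 45.5% and 51.2% against 43.8%, 44.1% and 49.3%). The ratio of *Tfap2b* to *Tfap2c* counts was 1.25, 1.28 and 1.44 in Ctrl and 2.86, 3.23 and 1.94 in TKO, with TKO replicate 3 the nearest to Ctrl. These shares follow from the 3 levels above and are no further evidence of a difference.

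**Figure D2:**
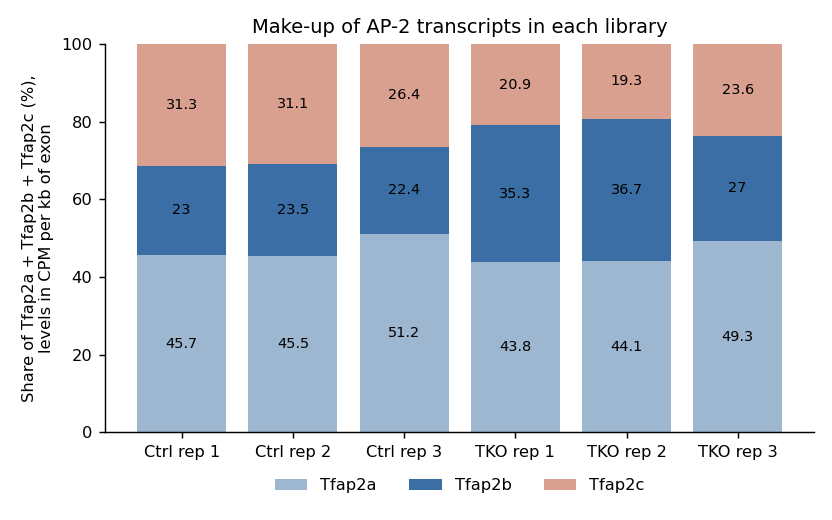
Share of *Tfap2a*, *Tfap2b* and *Tfap2c* in their summed CPM per kilobase of exon, in percent, for each library. In TKO libraries the *Tfap2b* share runs from 27.0% to 36.7%, above the Ctrl range of 22.4% to 23.5%, and TKO replicate 3 lies nearest to Ctrl.

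Reads from paralogs can be confused where sequences are identical, so the coding sequences of the AP-2 genes in GENCODE vM39 were aligned. *Tfap2a* and *Tfap2b* were identical at 68.1% of aligned positions, *Tfap2a* and *Tfap2c* at 63.9%, and *Tfap2b* and *Tfap2c* at 61.9%. The longest run of bases shared exactly by any of these pairs was 29 bases, between *Tfap2a* (coding positions 1273 to 1301, from the first base of the start codon) and *Tfap2b* (from position 1270). This run is printed as the longest coding stretch in which a read could come from either gene. A read longer than the run would meet a base that differs. Untranslated exons were not compared. The run is set beside the matching stretch of *Tfap2c* from coding position 1417, in which capitals mark the bases that differ from it. All 3 are written 5′ to 3′ on the coding strand.
Tfap2a and Tfap2b: acggccctgcagaactatctcaccgaggc
Tfap2c: TcCgcAGtgcagaaTtatAtcaAGgaggc
*Klf4* and *Klf5* were identical at 57.1% of aligned positions and shared no more than 11 bases in a row.

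*Gata3* (ENSMUSG00000015619; GRCm39, chromosome 2, 9861889 to 9894845, minus strand), a zinc finger factor needed for barrier lipids and for the inner root sheath of the hair follicle, was at 219, 205 and 249 CPM in Ctrl and 213, 195 and 296 CPM in TKO. The 3 lowest values came from both groups and the highest was TKO replicate 3. The log2 fold change was 0.07 (SE 0.176, interval -0.33 to 0.46), and -0.14 without TKO replicate 3. *Gata1*, *Gata2* and *Gata6* were at 2.20 CPM or less in every library, with log2 fold changes between -0.31 and -0.11, and *Gata4* and *Gata5* were too low to be tested. *Gata3* was thus the one tested GATA gene above that level.

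**Figure D3:**
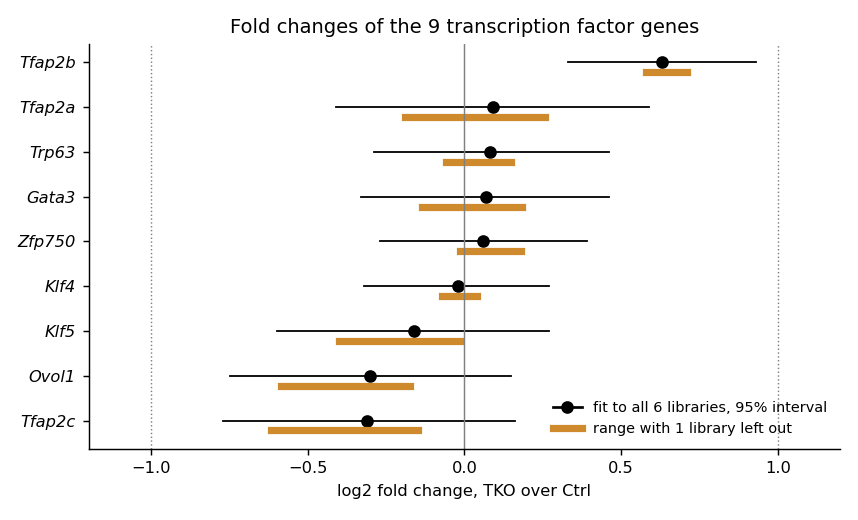
Log2 fold change of TKO over Ctrl for each factor, as a black point with its 95% confidence interval derived from the edgeR test (n = 3 against 3). Orange bars give the range of values when each library is left out in turn. The interval of *Tfap2b*, 0.33 to 0.93, is the one that does not reach 0, and no point lies beyond an absolute value of 1, the size needed for a call.

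Promoter windows from RefSeq (GRCm38.p6) were used for 4 of the 9 genes, as the 250 bases before each annotated start, and those of the other genes were not analysed here. The window of *Tfap2b*, the factor with the largest difference, and that of *Gata3*, which held the most matches to an AP-2 motif among the 4 genes, are printed 5′ to 3′ along each gene's own strand. Capitals mark matches to GCCNNNGGC, a palindromic AP-2 motif that reads the same on both strands. The windows are chr1:19211804-19212053 (plus strand) for *Tfap2b* and chr2:9878601-9878850 (minus strand) for *Gata3*.
Tfap2b: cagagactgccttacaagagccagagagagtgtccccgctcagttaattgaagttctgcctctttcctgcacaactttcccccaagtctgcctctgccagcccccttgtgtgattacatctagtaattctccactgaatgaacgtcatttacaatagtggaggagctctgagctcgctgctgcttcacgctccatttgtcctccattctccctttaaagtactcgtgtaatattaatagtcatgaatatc
Gata3: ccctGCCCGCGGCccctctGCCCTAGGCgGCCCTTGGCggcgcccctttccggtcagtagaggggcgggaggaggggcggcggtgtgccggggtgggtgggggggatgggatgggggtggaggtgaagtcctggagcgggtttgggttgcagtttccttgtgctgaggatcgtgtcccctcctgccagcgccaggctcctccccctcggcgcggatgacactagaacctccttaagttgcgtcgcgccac
The *Gata3* window held 3 matches, the *Klf4* window 1, and the *Tfap2b* window and both *Tfap2a* windows 0. A match occurred in 13.7% of 32817 mouse promoter windows of this length. The windows also differed in base composition, at 70% G and C for *Gata3* and 46.4% for *Tfap2b*, against a median of 52.4%. A match of letters is not a bound site, and no binding was measured here.

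Across libraries, most of the 9 factors stood highest in TKO replicate 3, which was the top library for *Trp63*, *Klf5*, *Ovol1*, *Tfap2a*, *Tfap2b*, *Tfap2c* and *Gata3*. Its level was 1.72 times the mean of TKO replicates 1 and 2 for *Tfap2c*, 1.65 times for *Ovol1*, 1.64 times for *Tfap2a*, 1.54 times for *Klf5*, 1.45 times for *Gata3* and 1.30 times for *Trp63*. For *Zfp750* (1.16 times), *Klf4* (1.10 times) and *Tfap2b* (1.10 times) it stood closer to the other TKO libraries. Over the 6 libraries, *Ovol1* followed *Tfap2c* (Pearson r of log2(CPM + 0.5) = 0.975), *Tfap2a* followed *Gata3* (r = 0.97) and *Klf5* followed *Tfap2c* (r = 0.958), and *Tfap2b* ran least with *Tfap2c* (r = -0.408, but 0.541 for deviations from group means). These coefficients are a description of 6 libraries that share scaling and makeup, and TKO replicate 3, in which the top 3 identifiers held the smallest share of counts, was at the high end for most of the genes. The part of library makeup in these values was not tested.

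**Figure D4:**
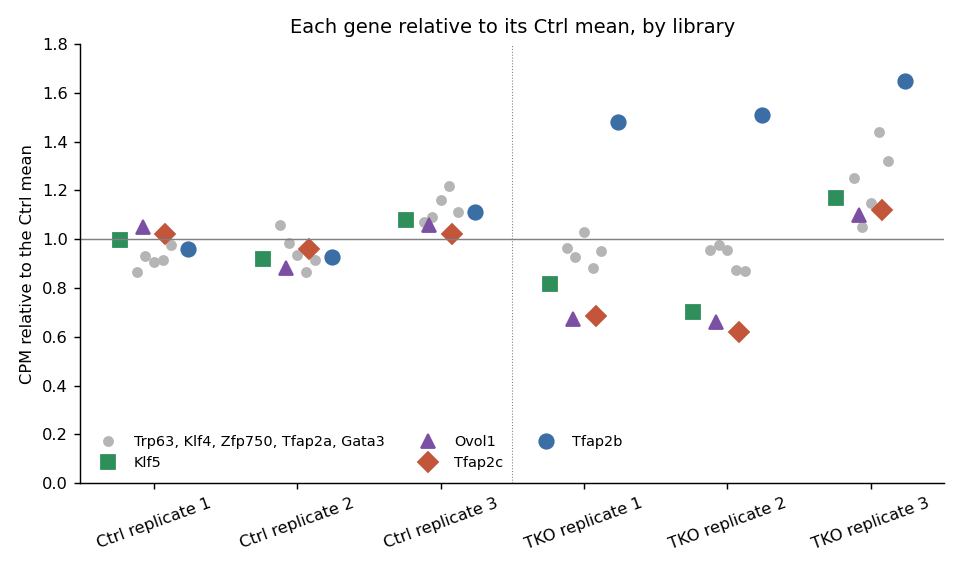
Level of each factor in each library divided by its Ctrl mean, as a linear ratio. *Tfap2b* is at 1.48 to 1.65 in all 3 TKO libraries, while *Ovol1*, *Tfap2c* and *Klf5* are at 0.62 to 0.82 in TKO replicates 1 and 2 and at 1.10 to 1.17 in TKO replicate 3.

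The genes that followed *Trp63* most closely over the 6 libraries, among 9229 with a mean of at least 10 CPM, were *Ube2d3* (r = 0.992), *mt-Nd1* (r = 0.990), *Xpr1* (r = 0.987), *Cbfa2t2* (r = 0.983) and *Tsg101* (r = 0.980). Their log2 fold changes were between 0.03 and 0.15, near that of *Trp63*. For *Tfap2b* they were *Shroom4* (r = 0.987), *Tenm3* (r = 0.983), *Stag3* (r = 0.980), *Tfcp2l1* (r = 0.979) and *Mdc1* (r = 0.975), and, as such a likeness largely fixes, the groups of all 5 were apart in the same direction. *Stag3*, a cohesin subunit of meiosis, was at 1.91, 1.40 and 2.63 CPM in Ctrl and 18.6, 28.4 and 23.8 CPM in TKO, and was itself called higher (log2 fold change 3.58, edgeR, adjusted p = 0.000974). Of the 9229 genes, 139 for *Trp63* and 118 for *Tfap2b* had r above 0.9.

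The factors were set beside lists of the genes around them, covering other regulators, p63 targets, epidermal layers and hair placodes. In these lists edgeR called no gene, and DESeq2 called *Hopx* and *Sprr1b* higher and *Krt15* lower. Of 40 other epidermal regulators, 1 was higher and 1 lower at an unadjusted p under 0.05, with a median log2 fold change of -0.04. The higher one was *Hopx*, a homeodomain protein of hair follicle and differentiating cells, at 2.80, 3.44 and 1.65 CPM in Ctrl and 8.17, 13.2 and 5.83 CPM in TKO (log2 fold change 1.78, SE 0.373, edgeR, adjusted p = 0.182). The lower one was *Id2*, an inhibitor of basic helix-loop-helix factors, at 13.4, 13.4 and 13.1 against 6.87, 7.34 and 12.7 CPM (log2 fold change -0.57). The related *Id3* was at 38.2 ± 11.3 against 29.0 ± 1.93 CPM, the Notch ligand *Jag1* at 191 ± 11.6 against 239 ± 35.5 CPM, and the *Notch1* receptor, the most abundant of the list, at 1204 ± 291 against 1427 ± 115 CPM.

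Known targets of p63 lay on both sides of 0. Of 23 tested, 0 were higher and 2 lower at an unadjusted p under 0.05, the median log2 fold change was -0.01, and 11 values were above 0 and 12 below. The 2 were *Cldn1*, a tight junction claudin, at 162, 219 and 212 against 124, 117 and 178 CPM (log2 fold change -0.50), and *Fgfr3*, a growth factor receptor, at 159, 118 and 151 against 110, 98.7 and 123 CPM (log2 fold change -0.37). *Krt5*, the basal keratin and most abundant gene of the list, was at 12318, 12051 and 8179 CPM in Ctrl and 6994, 8037 and 9022 CPM in TKO, and its groups overlapped (log2 fold change -0.44, SE 0.202). Integrin α3 (*Itga3*), with a log2 fold change of 0.28, was at 240, 225 and 242 against 261, 332 and 265 CPM, and its TKO libraries lay above Ctrl. None of these 4 passed the test over all genes (edgeR, adjusted p from 0.729 to 0.907).

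Layer genes were examined because several of the 9 factors act as cells leave the basal layer. Of 14 basal layer genes, 0 were higher and 1 lower at an unadjusted p under 0.05, with a median log2 fold change of 0.02. That gene was *Krt15*, a keratin of undifferentiated basal cells, at 2716, 2579 and 2089 CPM in Ctrl and 901, 792 and 1573 CPM in TKO (log2 fold change -1.18, SE 0.256, edgeR, adjusted p = 0.185), again with TKO replicate 3 nearest to Ctrl. *Krt14*, the partner of *Krt5*, was at 5744 ± 1054 against 4675 ± 425 CPM. Of 14 spinous layer genes 0 were higher and 2 lower at that unadjusted p, with a median log2 fold change of -0.04. The 2 were the paired suprabasal keratins *Krt1* (9973, 9778 and 10073 against 8516, 6100 and 6305 CPM, log2 fold change -0.51) and *Krt10* (8073, 7868 and 9475 against 7258, 5694 and 6094 CPM, log2 fold change -0.42), and neither pair of groups overlapped. Transcripts of the suprabasal keratins were thus abundant in the sorted population of both groups.

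Of 19 granular layer genes tested out of 21, 1 was higher and 0 lower at an unadjusted p under 0.05, with a median log2 fold change of 0.00. *Sprr1b*, a cornified envelope precursor, was at 1.28, 0.975 and 2.63 CPM in Ctrl and 6.35, 18.9 and 4.20 CPM in TKO (log2 fold change 2.59, SE 0.584, edgeR, adjusted p = 0.214). The protease *Asprv1*, the most abundant of the list, was at 178 ± 6.84 against 156 ± 21.5 CPM, the lipid transporter *Abca12* at 80.2 ± 11.2 against 111 ± 33.1 CPM, the ceramide synthase *Cers3* at 61.6 ± 6.53 against 53.1 ± 1.61 CPM and the protease *Klk7* at 0.619 ± 0.482 against 0.228 ± 0.0624 CPM. Of 15 hair placode and follicle genes 3 had an unadjusted p under 0.05 with a value above 0, namely the transcription factors *Cux1* (log2 fold change 0.35) and *Trps1* (0.39) and the Wnt inhibitor *Dkk4* (0.44), and 0 with a value below 0, and the list median was 0.11. In each of these 3 the groups did not overlap, but none passed the test over all genes (edgeR, adjusted p from 0.658 to 0.798). Over all tested genes, 4.06% were higher at that unadjusted p and 6.35% had TKO wholly above Ctrl.

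**Figure D5:**
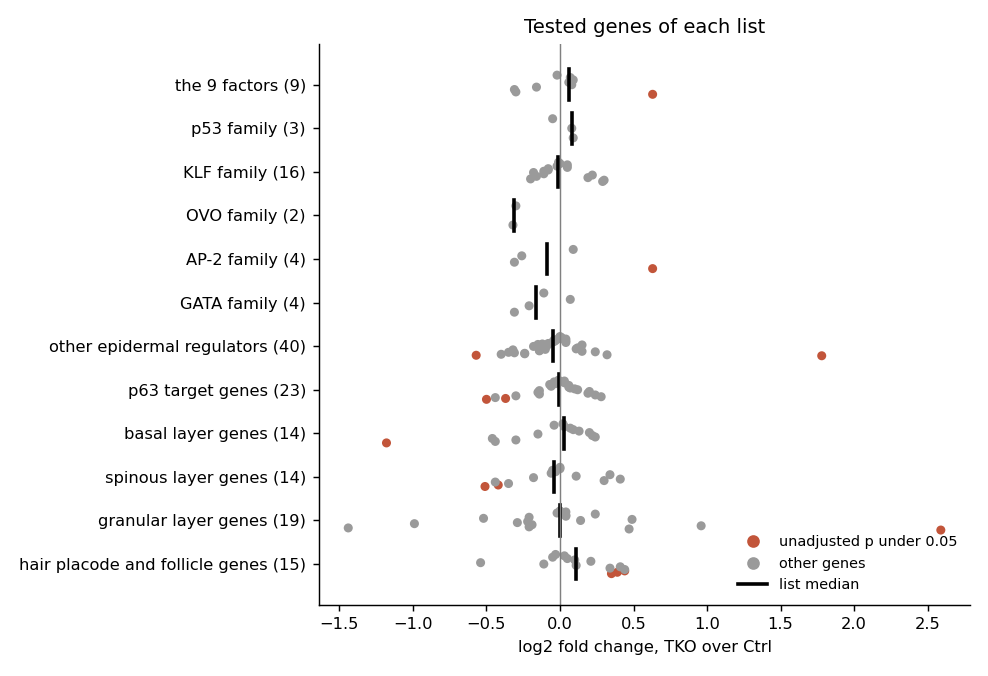
Log2 fold changes of TKO over Ctrl for the tested genes of each list, 1 point per gene, with the list median as a black bar, the number of genes in parentheses, and red points for an unadjusted edgeR p under 0.05. The 9 factors lie between -0.31 and 0.63, inside the span set by *Klk7* at -1.44 and *Sprr1b* at 2.59 among the granular layer genes.

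Markers of cells other than basal keratinocytes are given because all values come from bulk RNA, in which fewer cells of a type and less RNA per cell cannot be told apart. Skeletal muscle markers had 11 of 11 log2 fold changes above 0, with a median of 1.18, and 5 of 11 at an unadjusted p under 0.05. Their summed level was 4.5, 12.2 and 8.6 CPM in Ctrl and 36.4, 38.6 and 38.1 CPM in TKO, led by *Ttn*, and none of the 11 was at or under 3 counts in every library. Of the 11, edgeR called 1 and DESeq2 called 5. *Myh3*, an embryonic myosin, rose from 0.656, 0.758 and 0.501 to 3.87, 3.46 and 4.37 CPM and was called (log2 fold change 2.61, edgeR, adjusted p = 0.0211). Merkel cell markers had 7 of 7 tested log2 fold changes below 0, with a median of -1.15, and 6 of 7 at an unadjusted p under 0.05. Of the 7, edgeR called 0 (lowest adjusted p = 0.113, for *Krt8*), and the groups of *Chga* overlapped. Their sum was 21.1, 24.5 and 23.4 CPM in Ctrl and 9.73, 11.9 and 12.1 CPM in TKO, most of it *Piezo2*, and DESeq2 called *Krt8* and *Isl1* lower. *Krt20* had too few counts to be tested (21, 7 and 23 against 0, 0 and 9), and *Atoh1*, the factor that specifies Merkel cells, was at 0.828, 1.28 and 1.58 against 0.144, 0.0453 and 0.477 CPM. Fibroblast markers summed to 1240, 3465 and 3101 CPM in Ctrl and 2218, 2671 and 2890 CPM in TKO, led by *Col1a1*, with 0 of 9 at an unadjusted p under 0.05 and a median log2 fold change of -0.06. The part of other cell types in the levels of the 9 factors was not tested.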

How the data were processed

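The authors depleted rRNA, trimmed paired reads with fastp and aligned them with STAR, to GRCm39 in the paper's methods and GRCm38 in the submitters' processing notes. They deposited raw read counts per Ensembl gene, unnormalized and not pooled, in 1 table of 6 libraries. The counting program, its annotation and its strand setting are not given in the sources used here. GENCODE vM39 (GRCm39) held 51477 of the 55536 genes and was the source of symbols, positions and exon lengths. Those genes held from 86.4% of the counts, in Ctrl replicate 1, to 94.1%, in TKO replicate 3. Promoter windows came from RefSeq (GRCm38.p6).

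Counts were filtered with filterByExpr (minimum count 10, total 15), scaled by TMM and compared with glmQLFit (robust) and glmQLFTest in edgeR 4.0.16 (limma 3.58.1, R 4.3.3), two-sided, with Benjamini-Hochberg adjustment over 20622 genes. Genes past an adjusted p of 0.05 whose log2 fold change exceeded 1 in size were called. Total counts ran from 102159175 to 136515436. The SE of a log2 fold change was derived as its absolute value divided by the square root of the quasi-likelihood F statistic. Intervals on fold changes are at 95%, from that SE and a t quantile at the total degrees of freedom of the test. The floor of 3 counts covers counting error only. Alternatives were DESeq2 1.42.0 (same genes, or all with at least 10 counts), RLE, upper-quartile or no scaling factors, no count filter, at least 10 counts in every library, no robust estimation, the replicate number as a block, sex as a factor, each library left out, an adjusted p under 0.01, no fold threshold, and X and Y genes left out. A fit on male libraries only was chosen after seeing the data.

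The labels number the replicates 1 to 3 in both groups. Deviations from group means correlated between same-numbered libraries at 0.189, 0.187 and 0.272 on the log2(CPM + 0.5) scale. With a prior count of 2 they correlated at 0.168, 0.0873 and 0.127. Libraries with different numbers correlated lower, from -0.243 to 0.0191 on the first scale and from -0.161 to 0.0398 on the second. The labels do not say what the numbers stand for, so the pairing is not settled. The main fit leaves it out, and the fit with a block for replicate number is given beside it.

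The 9 genes and the gene lists were chosen with earlier results of these data known. Lists held the p53, KLF, OVO, AP-2 and GATA families, other epidermal regulators, p63 targets, layer, placode and cell type markers. Named genes were drawn from the 9 factors, the targeted methyltransferases, all tested family members, and of each other list the 4 with the smallest p and the most abundant. The 5 genes most like *Trp63* and *Tfap2b* were ranked by Pearson r. *Epcam*, *Itga6*, *Krt20*, *Chga*, untested family members and the genes called by DESeq2 are named outside that rule. Scripts were tested on simulated counts. Coding sequences were aligned with edlib 1.3.9.post1 (Python 3.11.15, pandas 2.3.3) and figures drawn with matplotlib 3.10.9. The study's other assays were not analysed here.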

Additional observations from a re-analysis of the deposited data

How the results depend on the processing

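No alternative that was run called any of the 9 factors. Of their 162 fold changes over 18 alternatives, 149 kept direction and side of the threshold, 3 passed an adjusted p of 0.05 and 10, of 5 genes, changed sign. The 3 were all *Tfap2b*, at 0.63 and adjusted p = 0.00414 with DESeq2 on the same genes, 0.63 and 0.0119 with its default workflow, and 0.60 and 0.0309 with edgeR and no count filter. *Klf4* was at 0.026 (log2) without TMM factors, and leaving out 1 library at a time gave -0.059 to 0.148 for *Trp63*, -0.073 to 0.040 for *Klf4*, -0.015 to 0.179 for *Zfp750*, -0.19 to 0.26 for *Tfap2a* and -0.14 to 0.18 for *Gata3*. *Klf5* (-0.40 to -0.01), *Ovol1* (-0.58 to -0.17), *Tfap2c* (-0.62 to -0.15) and *Tfap2b* (0.58 to 0.71) kept their sign, and for the first 3 the lower end was without TKO replicate 3 and the upper end without TKO replicate 2. The cause was not tested.

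The number of genes called, 27, all higher, was 214 with DESeq2 on the same genes (21 lower), 227 with its default workflow (29 lower), 235 with no count filter (22 lower), 9 with at least 10 counts in every library, 11 at an adjusted p under 0.01 and 10 in male libraries only. Without 1 library it ran from 7 (without Ctrl replicate 2) to 81 (without TKO replicate 3, 16 of them lower). It was 8 without Ctrl replicate 1, 8 without Ctrl replicate 3 and 15 without TKO replicate 2. With the replicate block it was 45 (1 lower), and the block changed no call among the 9 factors. In that paired fit *Tfap2b* was at 0.63 (edgeR, adjusted p = 0.11), *Ovol1* at -0.34 and *Tfap2c* at -0.36. For *Ovol1* the unadjusted edgeR p was 0.0563 with the block and 0.17 without it. For *Tfap2c* it was 0.0539 with the block and 0.172 without it. With sex as a factor *Tfap2b* had an adjusted p of 0.325, and in male libraries only it was at 0.61 with an adjusted p of 1. The median of all genes moved by less than 0.1 (log2) under every scaling.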

Other observations

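Markers of further cell types were measured in the same libraries. Of 10 periderm markers, 0 were higher and 3 lower at an unadjusted p under 0.05, namely *Krt8*, *Krt18* and *Krt13*, of which *Krt8* and *Krt18* are also Merkel cell markers, and DESeq2 called *Krt8* lower. *Krt17*, the most abundant of the list, was at 410, 473 and 302 CPM in Ctrl and 287, 518 and 516 CPM in TKO, and *Krt6a* at 3.37, 1.96 and 0.751 against 1.5, 13.7 and 1.07 CPM. Melanocyte markers summed to 13.8, 17.1 and 22.8 CPM in Ctrl and 18.4, 23.6 and 24.9 CPM in TKO, led by *Kit*, and *Mlana*, a melanosome protein, was the 1 of 8 higher at an unadjusted p under 0.05 (log2 fold change 3.13, SE 0.856, edgeR, adjusted p = 0.36, and 0.0206 by DESeq2, which called it higher).

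Endothelial markers summed to 27.1, 27 and 37 CPM against 25.1, 64.2 and 51.5 CPM, led by *Cdh5*, with 1 of 6 higher at an unadjusted p under 0.05, and immune cell markers to 18.6, 30.8 and 11.1 CPM against 5.84, 46.2 and 16.3 CPM, led by *Csf1r*, with 0 of 7. Erythroid markers summed to 20.8, 79 and 71.4 CPM against 67, 81.7 and 145 CPM, led by *Hba-a1*, and neural and Schwann markers to 4.05, 6.18 and 7.15 CPM against 4.68, 8.79 and 7.04 CPM, led by *Sox10*, with 0 of 7 in either list at an unadjusted p under 0.05 by edgeR. Log2 fold changes were above 0 for 6 of 6 endothelial markers (median 0.60), 6 of 7 erythroid (0.63), 7 of 8 melanocyte (0.38), 6 of 7 immune (0.13) and 4 of 7 neural and Schwann markers (0.16). None of these sums exceeded 145 CPM, and the groups overlapped in all 5. Their part in the levels of the 9 factors was not tested.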
